A study of Mus musculus with 13 samples.

Results

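The region described here surrounds Fn1, the mouse gene for fibronectin, and holds every Sox9 peak centred between 71560000 and 71770000 on chromosome 1 (mm9, all positions 1-based). It contained 18 of the 27656 rib peaks, of which 5 were of the 6794 Class I and 13 of the 20862 Class II peaks, and 3 of the 17440 nasal peaks. Fn1 lies on the minus strand at about 71632000 to 71700000, so it is read from the upper bound towards lower positions. These bounds are approximate, and a peak close to a bound cannot be placed on a side of it. Below, the start of the gene means the approximate upper bound, and not a mapped transcription start. The region was chosen by its numbers of rib and nasal peaks, many of the first and few of the second. The rib and nasal numbers that follow therefore describe that choice, and no test was made on them.

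The peaks come from ChIP-seq of Sox9 in chondrocytes, the cells of cartilage, released by enzyme digestion from untreated wild-type ICR mice. The rib library was made from cells of postnatal day 1 and the nasal library from nasal septum cells of embryonic day 17.5, both with the same antibody (Millipore AB5535). Tissue and stage differ together, so their parts cannot be told apart. There was 1 Sox9 library per tissue, so no difference between them has a replicate check. The lists give positions only, hence the depth of each library and the strength of each peak are unknown, and the cell type could not be checked against its marker genes.

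Fibronectin is a large glycoprotein that cells secrete and assemble into fibrils through integrin receptors. It is abundant where mesenchymal cells condense before cartilage forms, and cartilage matrix retains a spliced form of it. Sox9 is the HMG-box transcription factor that chondrocytes need to form and to make cartilage matrix. In RefSeq's GRCm38.p6 annotation the nearest protein-coding genes are Atic, for an enzyme of purine synthesis, on the lower side and Mreg, for melanoregulin, on the upper side. Among genes of any type in that annotation, the nearest are Atic on the lower side and Apol7d on the upper side. No peak was assigned to any of these neighbours.

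Rib peaks were most crowded at the start side of Fn1 and just beyond it. The 18 rib peaks spanned 106 kb, from 71630666 to 71736916. By their centres, 11 lay within the gene bounds, 6 above the upper bound and 1 below the lower bound. Of the 11, 9 fell in the 12 kb next to the upper bound, which is 17.6% of the gene's length. The rest of the gene held 2 rib peaks, and a stretch of 36.9 kb between them had none.

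**Figure D1:**
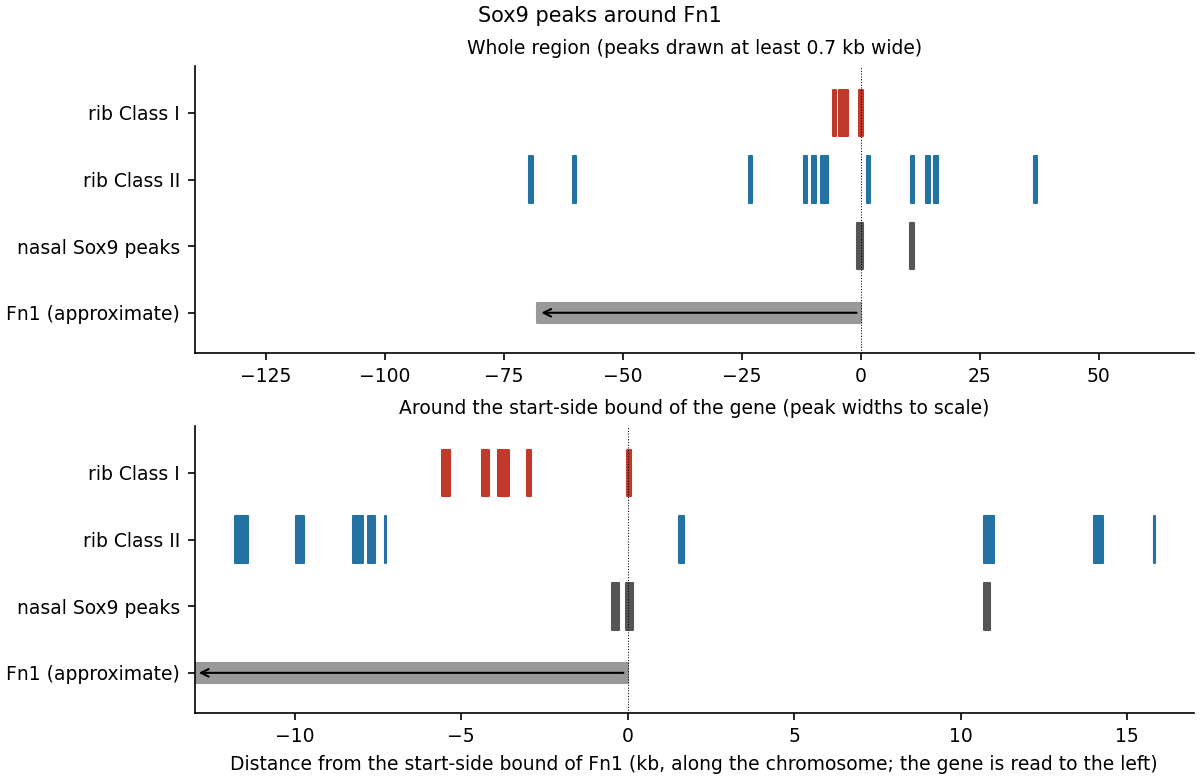
Sox9 peaks around Fn1, as distance in kb from the start-side bound of the gene along the chromosome, for rib Class I, rib Class II and nasal peaks; the grey bar is the approximate gene, read to the left. The upper panel covers the whole region and the lower panel the stretch around the start side, where the 5 Class I peaks stand together between Class II peaks and the 3 nasal peaks lie at the bound and 10.8 kb beyond it.

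The Class I peaks formed a single block at the start side. The 5 of them stood next to each other over 5.67 kb, from 71694426 to 71700099, with no Class II peak among them. The labels do not say what sets Class I apart from Class II. From the inside of the gene outwards, the first was 71694426 to 71694673, centred 5.45 kb inside the upper bound. The second, 71695623 to 71695846, and the third, 71696103 to 71696448, lay 256 bp apart. The third was the widest of the Class I peaks here, at 346 bp. The fourth was 71696982 to 71697108, 2.96 kb inside the bound. The fifth, 71699971 to 71700099, was centred 34.5 bp beyond the approximate bound and was the rib peak nearest to the start of the gene.

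Class II peaks lay on both sides of that block. Inside the gene, the nearest was 71692708 to 71692760, a peak of 53 bp centred 7.27 kb from the upper bound and 1.67 kb from the edge of the Class I block. Outside, the nearest was 71701531 to 71701707, centred 1.62 kb beyond the bound. That Class II peak was thus nearer to the bound than 4 of the 5 Class I peaks. Over both sides together, the classes were therefore not ordered by distance from this bound. Inside the gene bounds, however, all 4 Class I peaks were nearer to it than all 7 Class II peaks. Class II made up 72.2% of the rib peaks of the region (13 of 18, 95% exact binomial interval 46.5% to 90.3%), beside 75.4% of the whole rib list. The interval covers counting error only, and neighbouring peaks are not independent.

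The peaks above the gene were Class II apart from the Class I peak at the bound. A group of 3 stood between 71710715 and 71715836. Its members were 71710715 to 71711006, 71714020 to 71714273 and 71715795 to 71715836, at 10.9, 14.1 and 15.8 kb beyond the bound. The last of these was the narrowest rib peak of the region, at 42 bp. The highest rib peak, 71736691 to 71736916, lay 36.8 kb beyond the bound. At the other end of the gene, 71639751 to 71639948 lay 7.85 kb inside the lower bound, and 71630666 to 71630802 lay 1.27 kb outside it.

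Spacing between neighbouring rib peaks ranged from 163 bp to 36.9 kb, with a median of 1521 bp over 17 gaps. Peaks linked by gaps of at most 10 kb made a chain of 14 rib peaks, from 71688204 to 71715836, a length of 27.6 kb. It held the 5 Class I peaks, 9 Class II peaks and all 3 nasal peaks of the region. Over the genome, 447 such chains had at least 5 rib peaks, and 8, this chain among them, had at least 14. The numbers of nasal peaks inside the other chains of at least 14 were 14, 26, 7, 12, 10, 5 and 11. A gap of at most 1 kb linked 7 of the 18 rib peaks to another, 38.9%, beside 18.5% in the whole rib list. Many rib peaks were part of the choice of the region, and peaks lie closer where they are many. Spacing was not compared with windows equally rich in rib peaks. The closest pair was 71691759 to 71692057 and 71692221 to 71692422, at 163 bp. Whether such close peaks are parts of 1 broader enrichment was not tested. Joining rib peaks at most 1 kb apart left 13.

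Nasal peaks met the rib peaks at the start of Fn1 and at a site upstream of it. The nasal list had 71699547 to 71699752 and 71699947 to 71700177 at the start side of the gene, 194 bp apart, and 71710714 to 71710880 beyond it. The second shared 129 bp with the rib Class I peak at the start of the gene, and that rib peak lay wholly inside it. Their centres were 27 bp apart. The third shared 166 bp with the rib Class II peak 71710715 to 71711006, with centres 63.5 bp apart. The first nasal peak met no rib peak, and its edge lay 218 bp from that of the Class I peak at the start. In the nasal list the 3 stood at places 3868, 6911 and 9999 of 17440, so the nasal peak that met no rib peak was the earliest of them.

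Thus 2 of the 18 rib peaks were overlapped by a nasal peak, 11.1%, beside 42.8% of the whole rib list. In Class I it was 1 of 5, beside 68.8% of that class in the whole list. In Class II it was 1 of 13, beside 34.4%. The region was chosen for few nasal peaks, which could overlap only few of its rib peaks. These low shares therefore follow from the choice. In the other direction 2 of the 3 nasal peaks met a rib peak, beside 68.2% of the nasal list. At both shared sites the common stretch made up at least 50% of either peak, and no further rib peak had a nasal peak within 1 kb. The share with a nasal peak within 1 kb, overlapping ones included, was thus also 11.1%, beside 49.9% of all rib peaks. Among the 16 rib peaks without nasal overlap, the nearest nasal peak was between 1.35 kb and 68.7 kb away.

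The shared rib peaks were among the earliest of the region in the rib list. The list carries no score, and the labels do not say by what it was ordered. Over the whole list, nasal overlap fell from 81.7% in the first of 10 equal bins by place to 24.4% in the last. The upstream Class II peak 71710715 to 71711006 stood at place 2632 of 27656, followed by its neighbour 71714020 to 71714273 at place 2821. The Class I peak at the start of the gene stood at place 5787. After these came, 3 places apart, the narrow upstream peak 71715795 to 71715836 at place 15377 and the Class I peak 71696103 to 71696448 at place 15380. These 5 were the earliest rib peaks of the region, and the first and the third of them were those with nasal overlap. The second had none, and its edge lay 3.14 kb from the nearest nasal peak.

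**Figure D2:**
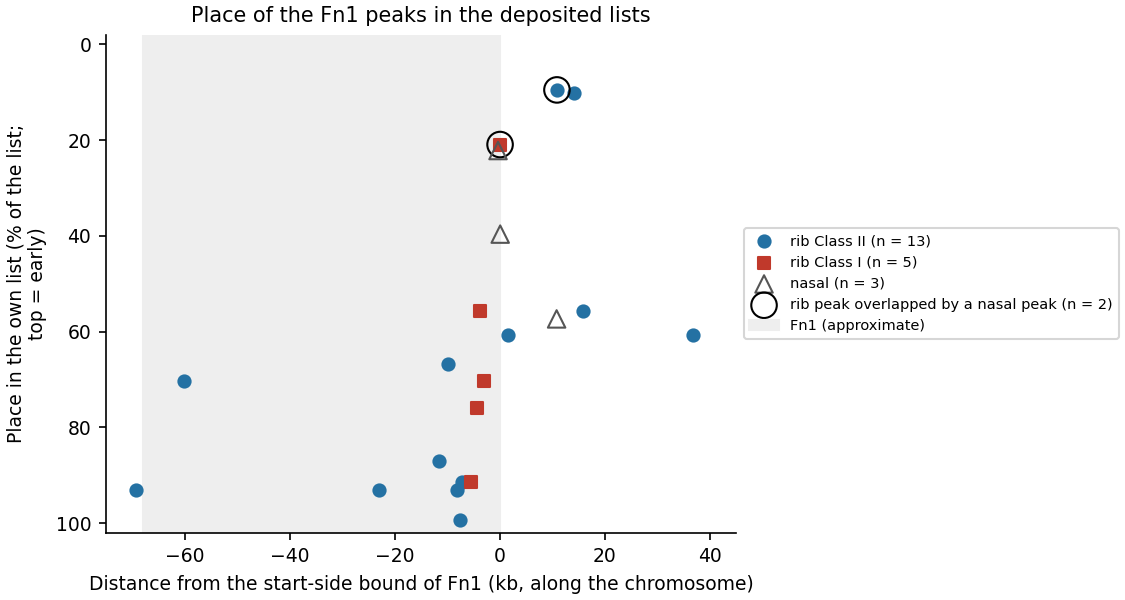
Place of each peak in its own list, as percent of the list with early places at the top, against distance from the start-side bound of Fn1 in kb; rings mark the 2 rib peaks that a nasal peak overlaps. Both ringed peaks and their neighbour at 14.1 kb beyond the bound lie in the first 20.9% of the rib list, and all rib peaks inside the gene lie at 55.6% or later.

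The other 15 rib peaks stood in the later part of the list. The median place over all 18 was 19448.5, beside 13828.5 for the whole list. Class I peaks of the region had a median place of 19430, beside 16983.5 for all Class I peaks, and Class II peaks 19467, beside 12631. The latest was the Class II peak 71692221 to 71692422 at place 27458. All 11 rib peaks within the gene bounds stood between places 15380 and 27458. Inside the gene, the widest rib peak of the region, 71688204 to 71688608 at 405 bp, stood at place 24086. The median width was 208 bp, beside 180 bp for the whole list. It was 224 bp beside 177 bp in Class I, and 202 bp beside 181 bp in Class II. The 18 peaks covered 3708 bp in all. Since the rib list is the longer of the lists, it was also shortened to its first 17440 places, the length of the nasal list. That left 7 rib peaks in the region beside the 3 nasal peaks. Of these 7, 2 were overlapped, and over the whole shortened list the share was 51.9%.

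No rib peak after place 13828 was overlapped by a nasal peak in the region. These were 4 Class I and 11 Class II peaks. In the same part of the list, nasal overlap was 60.5% over all 4272 peaks of Class I, and 15.4% over all 9556 of Class II. Nothing is read from these shares, since few nasal peaks were part of the choice of the region. In the first 3 bins the region had 3 rib peaks, 2 of them overlapped, where the share of the list was 65.5%.

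**Figure D3:**
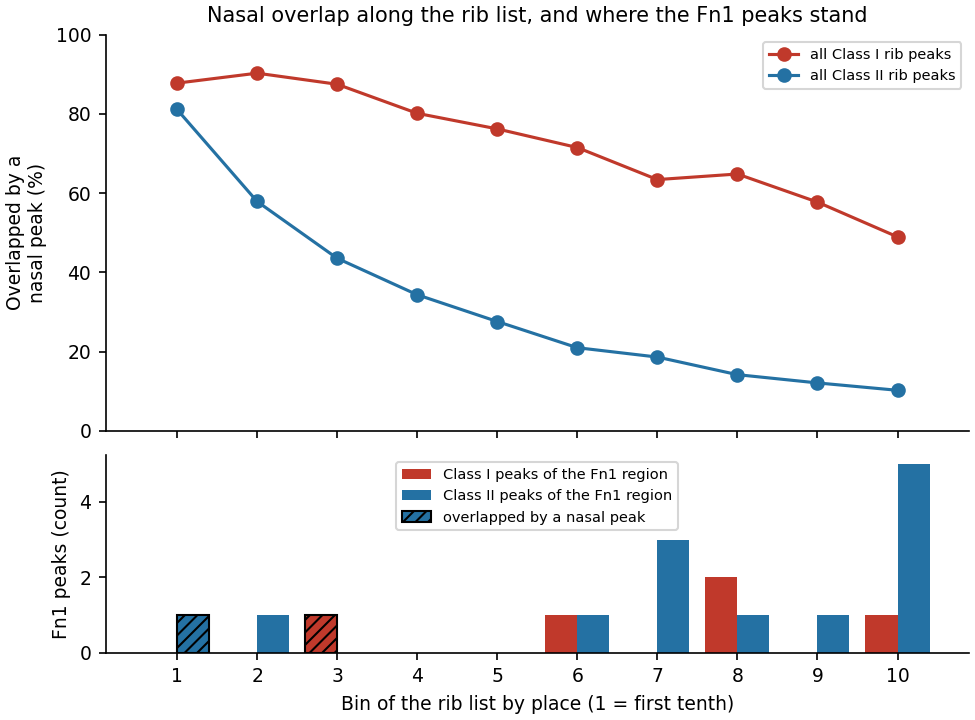
Upper panel, percent of all Class I and Class II rib peaks overlapped by a nasal peak in 10 bins of the rib list by place; lower panel, number of Fn1 peaks of each class in the same bins, hatched where overlapped. The Fn1 peaks number 3 in bins 1 to 3, none in bins 4 and 5, and 15 in bins 6 to 10, where none is hatched.

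Places late in the list were not independent of position. Of the 18 rib peaks, 9 stood within 4 places of another of the region. The Class II peaks 71630666 to 71630802, 71676834 to 71676968 and 71691759 to 71692057 stood at places 25738, 25740 and 25741, although together they span 61.4 kb. The Class II peak 71692708 to 71692760 and the neighbouring Class I peak 71694426 to 71694673 stood at 25245 and 25249. In the whole list, 8.74% of rib peaks had another within 4 places and 210 kb, and 13.6% did in bins 6 to 10. In windows with at least 18 rib peaks the share was 12.4%. Differences of a few places among the Fn1 peaks were therefore not read as an order.

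The region was set beside fixed windows of the same length, 210 kb, laid over the genome so that it was one of them. This grid keeps the region whole, while other groups of peaks may be cut at window edges. Since the region was chosen for many rib and few nasal peaks, its standing among the windows follows from that choice. Of 7138 windows with a peak, 56 had at least 18 rib peaks, the Fn1 region included. The median number of nasal peaks in these 56 was 12, with a range of 3 to 23, and the lowest value belonged to the Fn1 region. The 11 other windows with exactly 18 rib peaks held 6 to 12 nasal peaks, with a median of 11, and 5 to 12 of their rib peaks were overlapped. Their Class II peaks numbered 3 to 15, with a median of 14, and the Fn1 region had 13. The median place of their rib peaks lay between 3790.5 and 16958.5, in each case earlier than in the Fn1 region.

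**Figure D4:**
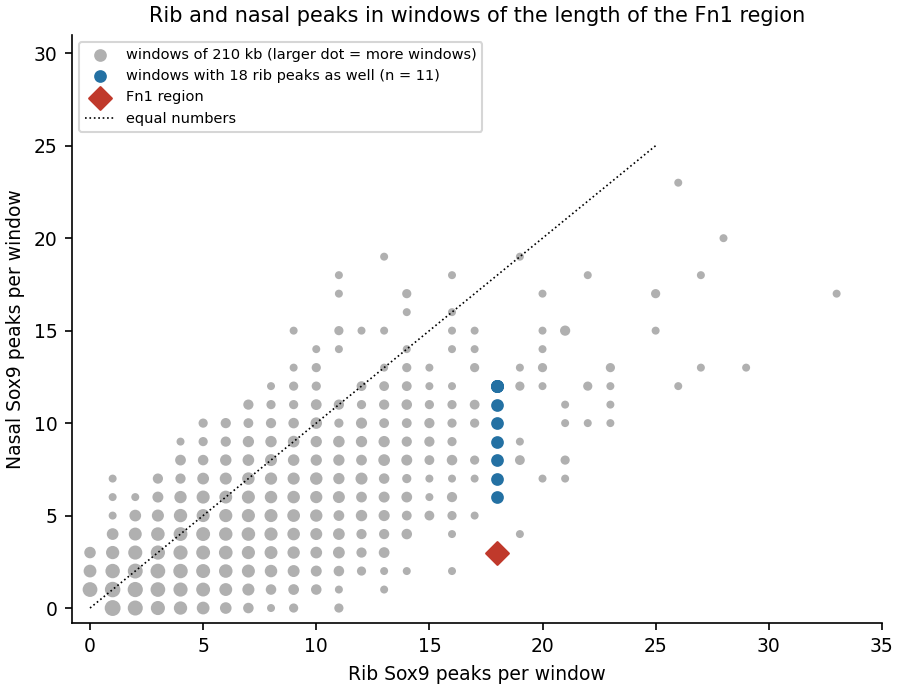
Nasal against rib Sox9 peaks in windows of 210 kb; grey dots are combinations of counts that occur, with larger dots for more windows, blue dots the 11 other windows with 18 rib peaks, the red diamond the Fn1 region and the dotted line equal numbers. The Fn1 region lies at 18 rib and 3 nasal peaks, below the blue dots at 6 to 12.

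Few windows had as large an excess of rib over nasal peaks, which was part of the choice of the region. The difference was 15 peaks at Fn1, and 3 other windows reached or passed it. The window on chromosome 15 at 97810001 to 98020000 had 33 rib and 17 nasal peaks. That on chromosome 7 at 86050001 to 86260000 had 29 and 13. In these, nasal peaks overlapped 45.5% and 34.5% of the rib peaks. The window most like Fn1 was on chromosome 16 at 43420001 to 43630000, with 19 rib and 4 nasal peaks, 4 of the rib peaks overlapped. It differed in class, since all 19 were Class II. The remaining windows with the most rib peaks had 28 rib and 20 nasal peaks (chromosome 11, 68830001 to 69040000), 27 and 13 (chromosome 3, 27460001 to 27670000), and 27 and 18 (chromosome 7, 124480001 to 124690000). Among the 543 other windows with at least 10 rib peaks, 14 had as few nasal peaks for each rib peak as Fn1 or fewer.

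Nasal peaks were more numerous in the 210 kb above the region than within it, though not evenly from its upper edge. The first peaks beyond that edge lay 0.461 kb outside. There the Class II rib peak 71770462 to 71770643, at place 960, shared 169 bp with the nasal peak 71770475 to 71770769. The next nasal peak, 71802041 to 71802222, lay 32.0 kb beyond the edge. In the next 210 kb above there were 14 rib peaks, 13 of them Class II, and 8 nasal peaks, and 8 of the rib peaks were overlapped, 57.1%. In the 210 kb below, there were 2 rib peaks and no nasal peak. The last rib peak on that side, 71430728 to 71430925, was 200 kb below the lowest rib peak of the region, and the last nasal peak, 71050895 to 71051152, was 580 kb below it. Widening the region by 50 kb on each side brought it to 25 rib and 7 nasal peaks, with 6 of the rib peaks overlapped.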

How the data were processed

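The series has 13 ChIP-seq libraries, 11 of rib and 2 of nasal septum chondrocytes, and the values used here are 4 lists of Sox9 peaks that the authors deposited as chromosome, start and end: the whole rib list, its Class I and Class II parts, and the nasal list. The build is mm9, per the submitters' processing notes. The sources used here name no aligner or peak caller, and do not say which control library, if any, was used to call the peaks. They give neither read depth nor a definition of the classes. Values of the inputs, the IgG control and the other antibodies were not analysed here, and there is no background value beside the peaks.

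Peaks were assigned to the region by their centres, and 1 was added to each start. Overlap meant at least 1 shared bp. Intervals are exact (Clopper-Pearson) at 95%. With 1 library per tissue, no test between samples was possible. The region, its bounds, the lists of windows and the rules for naming peaks were chosen with earlier results of these data known. Named peaks were all nasal ones, those shared between tissues, all Class I, the 5 earliest in the rib list, the widest, the narrowest and those nearest to the gene bounds, and others were chosen after their values were seen. Places in the list are line numbers. A search for SOX motifs in the Fn1 promoter and counts at other fibronectin genes were planned and not run, as no mm9 genome or annotation was used here. The routines were tested on simulated lists, which returned 800 of 800 planted overlaps, and bedtools 2.31.1 made another overlap call for 0 of the 27656 rib peaks. Software was scipy 1.17.1, pandas 2.3.3, numpy 2.4.6 and matplotlib 3.10.9 under Python 3.11.15.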

Additional observations from a re-analysis of the deposited data

How the results depend on the processing

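Of 21 recomputed values, 15 stayed within the exact binomial interval of the reported share or within 1.5 times the reported count. For the overlapped share of rib peaks that interval was wide, 1.38% to 34.7%, so a value inside it can still differ much from 11.1%. It also takes the peaks as independent, which neighbouring peaks are not. Since the region was chosen by its rib and nasal numbers as well, this tally is no measure of stability. The overlapped share of rib peaks was 11.1% with a common stretch of at least 50% of either peak (28.4% of all rib peaks), with peaks up to 1 kb apart (49.9%) and with centres within 200 bp (43.3%). It was 33.3% (1 of 3) in the first 50% of each list, beside 38.5% of all rib peaks kept there. It was 28.6% (2 of 7) with the rib list shortened to the nasal length, beside 51.9%. Within the gene bounds alone it was 0% of 11 rib peaks, because both shared rib peaks are centred above the approximate upper bound. The Class I peak lies 34.5 bp beyond it and the Class II peak 10.9 kb. Chosen after the data were seen, bounds widened by 1 kb gave 1 of 12, and the region widened by 50 kb on each side gave 24%. The number of rib peaks depended on the setting. It was 3 in the first 50% of the list, where nasal peaks numbered 2, and 7 in the shortened list. Within the gene bounds there were 11 rib peaks and 1 nasal peak. The rib excess of Fn1, which was part of its choice, was reached by 4 windows, Fn1 itself included. They were 0.056% of all 7138 windows and 0.735% of the 544 windows with at least 10 rib peaks, a smaller set. No paired analysis was possible because there was 1 library per tissue. Without depth or peak strength, a site absent from the nasal list cannot be told from a site under its threshold.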
